A study of Homo sapiens with 4 samples.

Results

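Cells build cholesterol and fatty acids from acetyl-CoA, and the genes for both routes were followed here in 2 human gastric cancer cell lines. The set held 36 of the 58336 genes in the deposited table, chosen by symbol from a fixed list: 17 sterol synthesis enzymes, 7 regulators of sterol sensing and uptake, and 12 fatty acid synthesis genes. Each symbol occurred once, so no choice between repeated rows was needed. The series compared control cells with cells given 10 nM estradiol for 1 day, by RNA sequencing. There were 4 libraries, a control and an estradiol library of AGS, an epithelial gastric adenocarcinoma line, and the same of HGC-27, an undifferentiated gastric carcinoma line. All were labelled wild type. The sources used here do not say whether the controls received a vehicle. Within a line there was 1 library per arm, and nothing says that libraries came from separate experiments, so p-values speak of the spread between these libraries, which may be technical.

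Sterol synthesis runs from acetyl-CoA through the mevalonate pathway to squalene, which is oxidised, closed into a ring and trimmed to cholesterol. Fatty acid synthesis draws on the same acetyl-CoA, builds saturated chains, and then lengthens and desaturates them. Both routes are governed by the SREBP transcription factors, made from SREBF1 and SREBF2. These precursors sit in the endoplasmic reticulum with the escort protein SCAP. When sterols are plentiful, INSIG proteins hold the complex there. When sterols run low, it moves to the Golgi, where proteases free the active factor, which raises the genes of both routes and INSIG1 itself.

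The libraries held 26306803 and 28062811 counts in AGS (control and estradiol) and 28734374 and 24597379 in HGC-27. Mitochondrial genes took 7.82% to 7.94% of counts. The 8 epithelial markers summed to 6179 and 6506 CPM (counts scaled to library size) in AGS against 70.4 and 74.1 in HGC-27. The 6 mesenchymal markers summed to under 6 CPM in each AGS library against 2020 and 2045 in HGC-27. VIM alone gave 1356 and 1366 CPM of the HGC-27 sums. Among these markers CDH2 was the exception, too low in every library to be tested. Its highest level was 0.40 CPM, in the AGS estradiol library, and its HGC-27 control level was 0.14 CPM. The sums of both marker lists differ between the lines as the genes below do, and their part in those differences was not tested. The 6 fibroblast and endothelial markers summed to 0.54 CPM in each AGS library and to 312 and 345 CPM in HGC-27, where LUM and DCN made up most of it and the endothelial marker CDH5 had 0 counts. Blood cell markers stayed under 5 CPM in sum, and the fat cell and liver markers under 1 CPM, with ADIPOQ, FABP4 and CYP7A1 at 0 counts in all 4 libraries.

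Most genes of both routes were higher in HGC-27 than in AGS, by amounts that ranged widely. Together they took 0.32% and 0.31% of all counts in AGS (control and estradiol) and 1.02% and 1.13% in HGC-27. All 36 genes passed the filter on low counts, ELOVL5 and ME1 through HGC-27 alone. Of them, 29 were higher in HGC-27 and 5 higher in AGS at an adjusted p under 0.05 (edgeR quasi-likelihood test on the line, with treatment in the model and n = 2 libraries per line). Over all 18278 genes tested, 41.5% were called higher in HGC-27 and 35.7% higher in AGS. The median log2 difference, AGS minus HGC-27, was -1.40 in sterol synthesis enzymes, -1.44 in the regulators and -1.81 in fatty acid synthesis genes, beside -0.10 over all genes tested. ELOVL5 and ME1, which passed through HGC-27 alone, are among the 29 and in the fatty acid median. They could only be higher in HGC-27, and no median was made without them. The order of the group medians is therefore not a result. In bulk RNA, a gene used by fewer cells and a gene used less by every cell cannot be told apart.

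**Figure D1:**
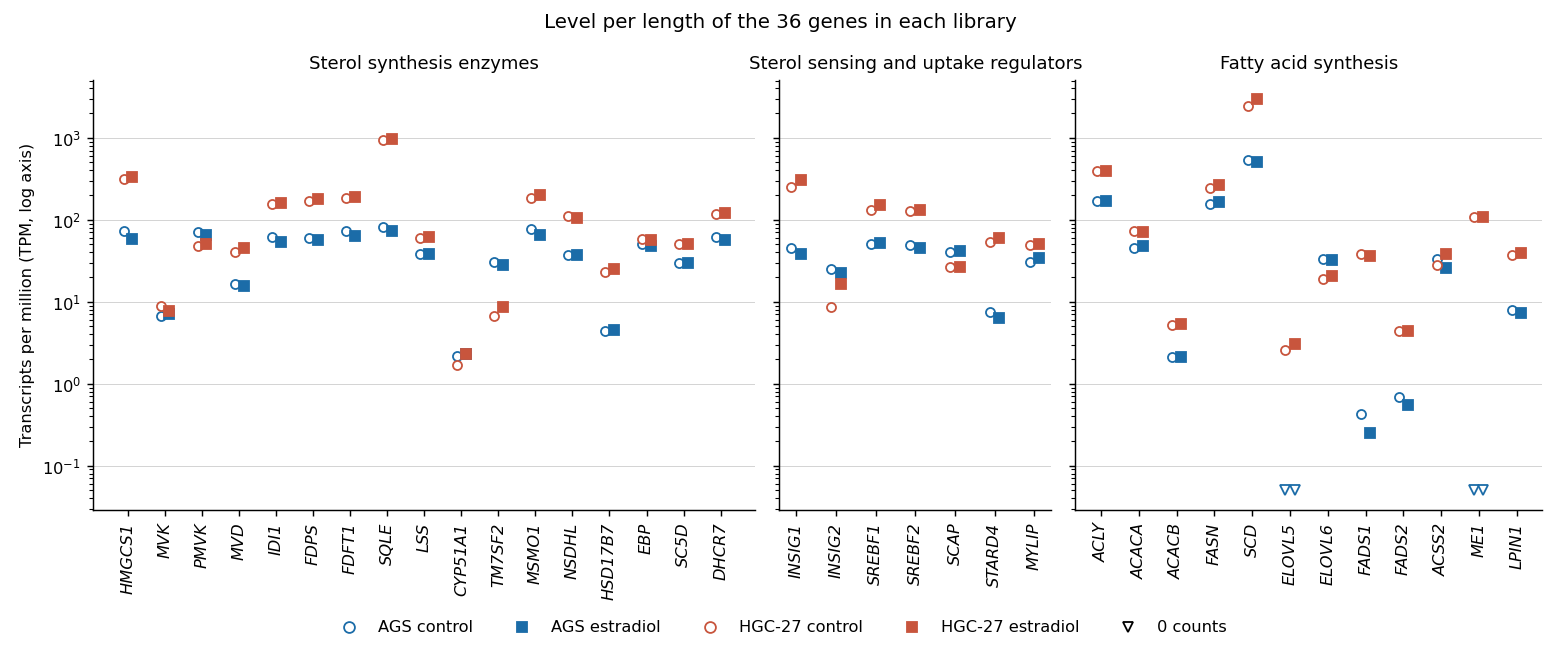
Level per length (TPM, log axis) of the 36 genes in each of the 4 libraries; open circles are controls, filled squares estradiol libraries, and triangles at the foot mark 0 counts. The red HGC-27 symbols lie above the blue AGS symbols for most genes, SQLE and SCD are the highest in HGC-27, and ELOVL5 and ME1 have 0 counts in AGS.

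Among the enzymes that lead from acetyl-CoA to squalene, HMGCS1, the enzyme that makes HMG-CoA, stood at 102 CPM in the AGS control and 81.8 CPM with estradiol, and at 441 and 458 CPM in HGC-27. The groups did not overlap, and the fitted level was 4.91-fold higher in HGC-27 (log2 difference -2.30 ± 0.06 SE, adjusted p = 6.54e-144 in edgeR). The later mevalonate enzymes were closer to each other. MVD, which makes the isoprene unit, IDI1, which isomerises it, FDPS, which joins such units, and FDFT1, which makes squalene, were 2.63 to 2.94-fold higher in HGC-27. MVK, the mevalonate kinase, had 12.8 and 13.7 CPM in AGS and 17.2 and 14.8 CPM in HGC-27, a log2 difference of -0.27 ± 0.12 (adjusted p = 0.0431 in edgeR, and 0.32 in DESeq2). Without the HGC-27 control the MVK difference was -0.16 and not called. PMVK, which adds the next phosphate to mevalonate, went the other way with 27.1 and 24.8 CPM in AGS against 18.4 and 19.2 CPM in HGC-27 (log2 difference 0.46 ± 0.10). The enzymes of consecutive steps thus differed by unequal amounts. Exons of FDPS, HMGCS1 and IDI1 overlap genes on the other strand over 18.6%, 15.0% and 14.8% of their bases, which makes their counts less certain if strand was not used.

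Squalene epoxidase, SQLE, an oxygen-using and rate-limiting step, showed the largest difference of the sterol enzymes. It stood at 106 and 94.9 CPM in AGS and at 1225 and 1216 CPM in HGC-27, 12.1-fold higher (log2 difference -3.60 ± 0.06, adjusted p = 1.06e-209 in edgeR). Per length (TPM, scaled by gene length and library), SQLE was the highest sterol enzyme in all 4 libraries, at 82.5 and 73.9 TPM in AGS and 952 and 957 TPM in HGC-27. In HGC-27 it made up 38.3% and 37.5% of the summed TPM of the 17 sterol enzymes, against 10.6% and 10.5% in AGS. The oxidosqualene cyclase LSS, which takes up the product of SQLE, differed much less, at 83.2 and 81.7 CPM in AGS and 131 and 132 CPM in HGC-27.

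The enzymes that trim lanosterol to cholesterol also differed unequally. HSD17B7, a ketosteroid reductase, had 5.43 and 5.54 CPM in AGS and 28.7 and 30.5 CPM in HGC-27 (log2 difference -2.43 ± 0.13). Of the 31-base stretches of its longest transcript, 26.8% also occur in other genes, most of them in the pseudogene HSD17B7P2, so its counts are less certain. MSMO1, the methyl sterol oxidase, and NSDHL, which acts with it, were 2.68 and 2.87-fold higher in HGC-27. DHCR7, the last reductase, was 2.03-fold higher, and the desaturase SC5D 1.71-fold. The isomerase EBP was nearly level (log2 difference -0.21 ± 0.08), and its call was lost in DESeq2 (adjusted p = 0.0559).

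TM7SF2, a sterol reductase, was the exception, with 30.9 and 28.8 CPM in AGS and 6.84 and 8.72 CPM in HGC-27. The AGS libraries were the higher ones, by a log2 difference of 1.94 ± 0.12 (adjusted p = 2.32e-45 in edgeR). LBR, a nuclear envelope protein with the same reductase activity that is not in the set and was taken up after its values were seen, was the more abundant transcript throughout. TM7SF2 gave 16.0% and 16.5% of the summed TPM of the pair in AGS, and 5.86% and 7.60% in HGC-27.

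CYP51A1, the lanosterol demethylase, cannot be read as a level. AGS gave it 69 and 77 counts, and HGC-27 60 and 70, the lowest TPM of the sterol enzymes in every library. In the deposited table the gene (chromosome 7, 92112151 to 92142952) shares nearly all of its span, on the same strand, with the model of LRRD1 (92112159 to 92179531), which had 0 counts in both AGS libraries and 7 and 1 in HGC-27. The sources used here do not say how reads that fall on more than 1 model or place were counted. The overlap with LRRD1 is one of spans, introns included. In GENCODE release 29, 79.4% of the exonic bases of CYP51A1 lie in exons of other genes on the same strand. Of the 31-base stretches of the CYP51A1 transcript, 89.9% occur in other genes of that release, and 88.6% in AC000120.2. The gene was not called between the lines.

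**Figure D2:**
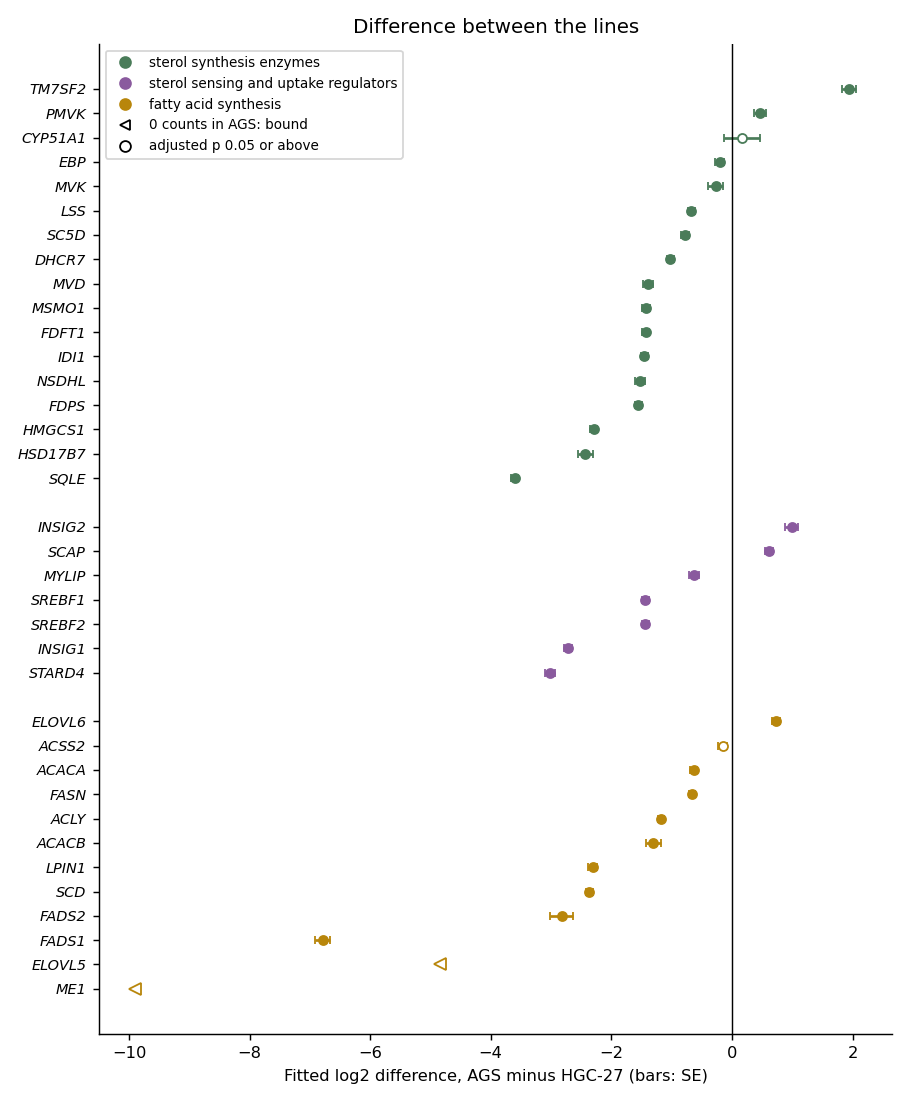
Fitted log2 difference between the lines for each gene, AGS minus HGC-27, with SE bars; open circles did not pass an adjusted p of 0.05, and open triangles are bounds for genes with 0 counts in AGS. Most points lie left of 0 (higher in HGC-27), down to bounds of -9.90 for ME1 and -4.84 for ELOVL5, while TM7SF2, INSIG2, ELOVL6, SCAP and PMVK lie to the right.

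Of the regulators, both SREBF genes were higher in HGC-27 by nearly the same amount. SREBF1 stood at 122 and 126 CPM in AGS and 316 and 355 CPM in HGC-27 (log2 difference -1.44 ± 0.05), and SREBF2 at 112 and 102 CPM in AGS and 286 and 294 CPM in HGC-27 (-1.44 ± 0.05). Per length their transcripts were close to equal in each library, with SREBF2 giving 46.4% to 49.3% of the pair. SCAP, the escort protein, was lower in HGC-27, at 50.1 and 49.8 CPM against 75.6 and 77.6 CPM in AGS (log2 difference 0.62 ± 0.07). MYLIP, which directs the breakdown of lipoprotein receptors and is induced by oxysterols, was 1.54-fold higher in HGC-27.

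The INSIG genes went in opposite directions between the lines. INSIG1, itself a target of the SREBP factors, stood at 49.9 and 41.4 CPM in AGS and 275 and 326 CPM in HGC-27, 6.58-fold higher (log2 difference -2.72 ± 0.06, adjusted p = 9.95e-155 in edgeR). INSIG2, which does not depend on those factors in the same way, stood at 29.9 and 26.6 CPM in AGS and 10.2 and 19.1 CPM in HGC-27, lower in HGC-27 (log2 difference 0.99 ± 0.11, adjusted p = 3.39e-17 in edgeR). The size of the INSIG2 difference depended on the HGC-27 libraries: it was 0.56 without the HGC-27 control and 1.46 without the HGC-27 estradiol library, called in both. Per length, INSIG2 gave 35.7% and 37.2% of the summed TPM of the pair in AGS but 3.31% and 5.14% in HGC-27. STARD4, which carries cholesterol between membranes, had 12.8 and 10.7 CPM in AGS and 91.1 and 99.6 CPM in HGC-27, 8.12-fold higher and the largest difference of the regulators.

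In fatty acid synthesis the enzymes that make the saturated chain differed modestly. ACLY, which makes cytosolic acetyl-CoA from citrate, was 2.27-fold higher in HGC-27, the acetyl-CoA carboxylases ACACA and ACACB 1.55 and 2.48-fold, and fatty acid synthase, FASN, 1.58-fold. ACACB stayed the minor carboxylase in both lines, with 4.24% to 4.55% of the summed TPM of the pair in AGS and 6.69% to 6.95% in HGC-27. ACSS2, which makes acetyl-CoA from acetate, was not called (log2 difference -0.15 ± 0.08, adjusted p = 0.0593 in edgeR), and its libraries overlapped. Its value depended on each library: without the AGS control it was -0.34 and without the HGC-27 control -0.36, both called, and without the AGS or HGC-27 estradiol library 0.03 and 0.06, not called. The lipin LPIN1, a phosphatidate phosphatase, was 4.96-fold higher in HGC-27.

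Of all 36 genes, SCD, the desaturase that makes oleate from stearate, had the highest level per length in every library. It stood at 535 and 505 TPM in AGS and 2456 and 2951 TPM in HGC-27. In CPM the values were 858 and 809 against 3937 and 4671, which is 5.15-fold higher in HGC-27 (log2 difference -2.36 ± 0.05, adjusted p = 3.87e-156 in edgeR). SCD gave 54.2% and 52.8% of the summed TPM of the 12 fatty acid genes in AGS, and 72.0% and 75.0% in HGC-27. Of the 31-base stretches of its transcript 12.6% also occur in other genes. Without SCD the sum of the group was 452 TPM in both AGS libraries and 954 and 982 TPM in HGC-27. Its homologue SCD5, named after its values were seen, gave 2.08% to 2.25% of the pair in AGS and 0.52% to 0.62% in HGC-27.

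The enzymes of the polyunsaturated branch were low or at 0 counts in AGS. FADS1 and FADS2 are the desaturases, and ELOVL5 the elongase, that turn dietary essential fatty acids into long polyunsaturated ones. AGS gave FADS1 34 and 21 counts where HGC-27 gave 3386 and 2765, a level of 1.31 and 0.76 CPM against 117 and 111 CPM (log2 difference -6.79 ± 0.12, adjusted p = 2.46e-189 in edgeR). FADS2 stood at 2.27 and 1.81 CPM in AGS and 14.5 and 14.4 CPM in HGC-27 (log2 difference -2.82 ± 0.19). ELOVL5 (chromosome 6, 53267398 to 53349179) had 0 counts in both AGS libraries and 86 in each HGC-27 library. Set against a floor of 3 counts in each AGS library, it was at least 28.6-fold higher in HGC-27, where it was still the lowest fatty acid gene per length at 2.61 and 3.06 TPM. The exons of FADS1 and FADS2 overlap on opposite strands over 4.8% of FADS1, and the sources used here do not say whether counting used strand.

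ME1, the malic enzyme that supplies NADPH for chain building, was also at 0 in AGS. Neither AGS library had a count for the gene (chromosome 6, 83210389 to 83431071), and those of HGC-27 had 3112 and 2663, at least 956-fold higher against the same floor. ELOVL6, which lengthens saturated chains, was the only fatty acid gene called higher in AGS, with 73.1 and 70.0 CPM against 41.5 and 45.0 CPM in HGC-27 (log2 difference 0.73 ± 0.07, adjusted p = 1.34e-21 in edgeR). The elongases in the set thus went in opposite directions between the lines.

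Other genes of these pathways, from lists that held no member, were called in both directions, which is given as counts with no test against the set. Of all genes tested, 41.5% were called higher in HGC-27 and 35.7% higher in AGS. Of 25 other sterol genes, 23 were tested, with 9 called higher in HGC-27 (39.1%) and 10 higher in AGS (43.5%), near those shares. Their median log2 difference was 0.04. The largest differences were in ABCG1, a sterol exporter, at 0 counts in both AGS libraries and at 930 and 790 in HGC-27 (at least 285-fold higher), and SOAT1, which esterifies cholesterol (-3.49 ± 0.10). In the other direction were MBTPS1, the protease that first cuts SREBP precursors (1.26 ± 0.06), and NR1H2, an oxysterol receptor (1.00 ± 0.08). Of 29 other fatty acid genes, 26 were tested, with 14 higher in HGC-27 (53.8%), 10 higher in AGS (38.5%) and a median of -0.26. The elongase ELOVL4, at 0 counts in both AGS libraries, was at least 301-fold higher in HGC-27, and HSD17B12, the reductase of the elongation cycle and also at 0 there, at least 161-fold. ELOVL7 (5.46 ± 0.19) and the acyl-CoA synthetase ACSL5 (5.19 ± 0.25) were higher in AGS.

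Estradiol over both lines gave no call in the set. Of the 36 genes, 0 passed an adjusted p of 0.05 (edgeR, line as a block, n = 2 libraries per group), and 3 had an unadjusted p under 0.05: INSIG2, HMGCS1 and SREBF1. DESeq2 and limma-voom also called 0. Over all 18278 genes tested, 0.153% were called at the adjusted threshold, and 593 had an unadjusted p under 0.05 in edgeR. The smallest adjusted p was that of INSIG2 (0.933, log2 change 0.30 ± 0.11). The median log2 change was -0.04 in sterol synthesis enzymes, 0.04 in the regulators and 0.01 in fatty acid genes, beside -0.001 over all genes. Among the other pathway lists, estradiol gave 0 calls in the sterol, fatty acid and oxidation lists.

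Within each line the ratio of the estradiol to the control library could be described but not tested, since each arm was 1 library. In AGS, 31 of the 36 genes had a mean of at least 100 counts, and their log2 ratios ran from -0.38 to 0.17. Of these, 4 lay below 1/1.2-fold and 0 above 1.2-fold, which is 12.9% and 0%, against 4.64% and 3.47% of all genes with as many counts. In HGC-27, 34 genes had enough counts, with ratios from -0.22 to 0.90. Here 3 lay above 1.2-fold and 0 below 1/1.2-fold, 8.82% and 0% against 5.22% and 1.98% of all genes. The median ratio in AGS was -0.10 in sterol enzymes, -0.13 in regulators and -0.05 in fatty acid genes, beside -0.004 over all genes. In HGC-27 it was 0.04, 0.13 and 0.03, beside -0.008. The 2 comparisons share no library.

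Counting intervals (95%, counting error only) included smaller ratios. In AGS the interval lay below 0 for 12 of 31 genes and above 0 for 3, that is 38.7% and 9.68%, against 15.5% and 14.2% of all genes. In HGC-27 it lay above 0 for 12 of 34 and below 0 for 3, that is 35.3% and 8.82%, against 10.8% and 14.6% of all genes. The genes of the set had more counts than the rest, with a median of 1652 against 1106 in AGS and 2982 against 972 in HGC-27, and such intervals narrow with counts. Of the 16 sterol synthesis enzymes with enough counts, 6 lay below 0 in AGS: HMGCS1, IDI1, FDFT1, SQLE, MSMO1 and DHCR7. In HGC-27, 5 lay above 0 (HMGCS1, MVD, FDPS, TM7SF2 and MSMO1) and MVK below. Of the 7 regulators, INSIG1, INSIG2, SREBF2 and STARD4 lay below 0 in AGS and MYLIP above, while INSIG1, INSIG2, SREBF1 and STARD4 lay above 0 in HGC-27. Of the fatty acid genes, SCD and ACSS2 lay below 0 in AGS and ACACA and FASN above. In HGC-27, FASN, SCD and ACSS2 lay above 0, and ACLY and FADS1 below.

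**Figure D3:**
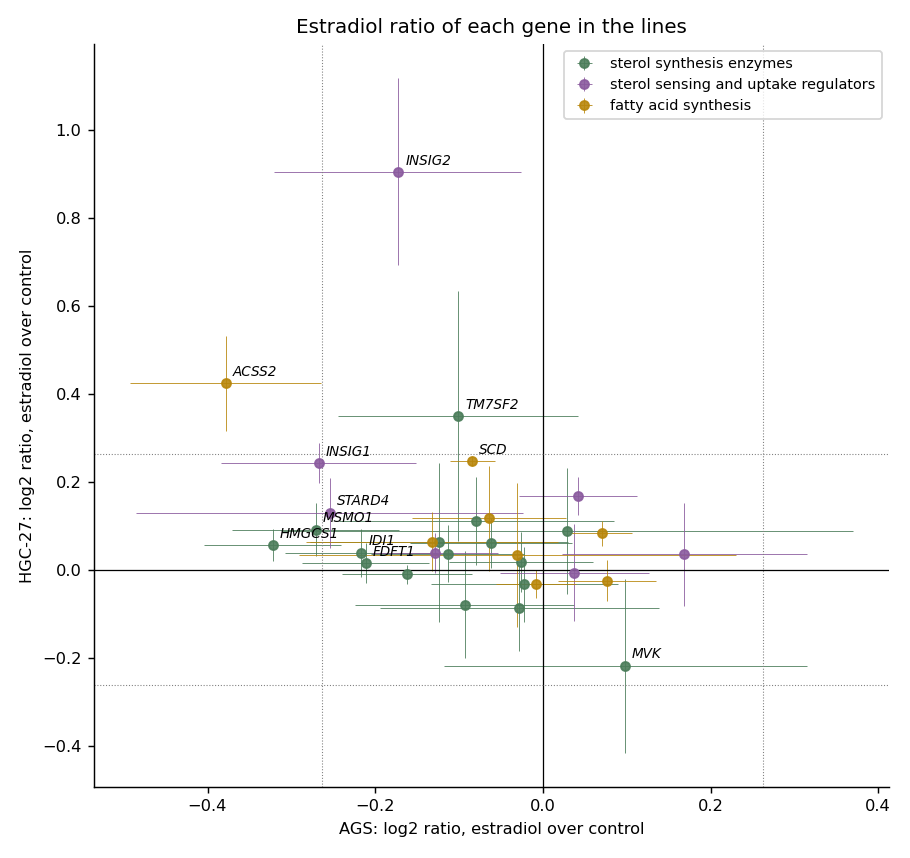
Log2 ratio of estradiol over control for genes with a mean of at least 100 counts in each line, AGS on the x axis and HGC-27 on the y axis, with 95% counting intervals; dotted lines mark 1.2-fold. INSIG2 and ACSS2 stand apart in the upper left, lower with estradiol in AGS and higher in HGC-27, and most sterol enzymes lie left of 0.

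ACSS2 (chromosome 20, 34872146 to 34927962) had, among genes of the set with a mean of at least 100 counts in the line, the lowest ratio in AGS and the second highest in HGC-27. It stood at 53.9 CPM in the AGS control and 41.5 CPM with estradiol, a log2 ratio of -0.38 (counting interval -0.49 to -0.26), and stood at 45.5 and 61.0 CPM in HGC-27, a ratio of 0.42 (0.32 to 0.53). HMGCS1 stood at -0.32 in AGS (-0.40 to -0.24) and 0.06 in HGC-27 (0.02 to 0.09). MSMO1 stood at 67.6 and 56.0 CPM in AGS, a ratio of -0.27 (-0.37 to -0.17), and 160 and 171 CPM in HGC-27, a ratio of 0.09 (0.03 to 0.15). For each of these genes the interval excluded 0 on opposite sides in the lines.

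INSIG1 stood at -0.27 in AGS (-0.38 to -0.15) and 0.24 in HGC-27 (0.20 to 0.29). Its fitted change over both lines was 0.04 ± 0.06, between those of the lines. STARD4 stood at -0.25 in AGS (-0.49 to -0.02) and 0.13 in HGC-27 (0.05 to 0.21). SCD stood at -0.08 in AGS (-0.11 to -0.06) and 0.25 in HGC-27 (0.23 to 0.26). TM7SF2 was past 1.2-fold in HGC-27 at low counts, 198 and 218, with a ratio of 0.35 (0.07 to 0.63), against -0.10 in AGS (-0.24 to 0.04). MYLIP stood at 0.17 in AGS (0.02 to 0.31) and FASN at 0.07 in AGS and 0.08 in HGC-27, so not every gene of the set was lower with estradiol in AGS.

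INSIG2 (chromosome 2, 118088452 to 118110997) had the largest ratio of the set in HGC-27. The HGC-27 libraries gave 295 and 477 counts, a log2 ratio of 0.90 (0.69 to 1.12), and the AGS libraries 778 and 734, a ratio of -0.17 (-0.32 to -0.03). INSIG2 is known to be raised by low oxygen, and low oxygen genes stood beside it. Of 18 such genes, 16 had enough counts in HGC-27, and 10 of these were above 1.2-fold and 0 below 1/1.2-fold, against the 5.22% and 1.98% of all genes given above, with a median ratio of 0.30. In AGS, 14 had enough counts, with 1 above and 1 below (7.14% each), against 3.47% and 4.64% of all genes, and a median of -0.001. In HGC-27 the count rule left out BNIP3 (54 and 29 counts) and ANKRD37 (53 and 33 counts). Their ratios there were below 0, at -0.67 (-1.39 to -0.009) and -0.46 (-1.15 to 0.18). CA9 stood at 1.72 in HGC-27, NDRG1 at 1.31 and PFKFB4 at 0.90, all named after their values were seen. CA9 and NDRG1 were also called in the fit over both lines, but AGS showed no such rise. CA9 had only 2 and 0 counts in AGS, and the NDRG1 ratio there was -0.0006. The part that oxygen supply had in the INSIG2 ratio was not tested. This list and the pattern were known from earlier results on these data.

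**Figure D4:**
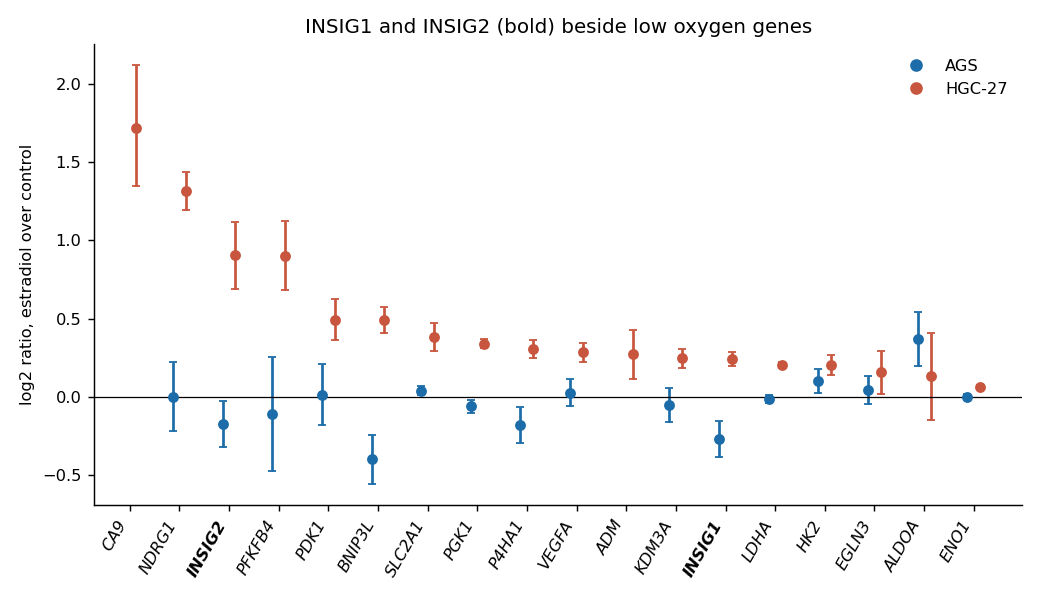
Log2 ratio of estradiol over control, with 95% counting intervals, for INSIG1 and INSIG2 (bold) and the low oxygen genes with a mean of at least 100 counts in HGC-27; AGS points are drawn where AGS has as many counts. In HGC-27, INSIG2 lies level with PFKFB4 at 0.90, while in AGS it lies at -0.17.

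Other sterol genes in AGS showed low ratios as well. Of 22 with enough counts, 11 had an interval below 0 and 1 above, against 15.5% and 14.2% of all genes, with a median of -0.11, while in HGC-27 it was 1 below and 1 above of 23, against 14.6% and 10.8% of all genes, with a median of -0.005. The gene above 0 in each line, named after its values were seen, was ABCA1, an exporter of cholesterol that oxysterols induce, at 0.21 in AGS (0.03 to 0.38) and 0.14 in HGC-27 (0.09 to 0.20). Of the other fatty acid genes in AGS, 7 of 23 lay below 0 and 0 above, and in HGC-27 4 of 23 lay below and 2 above.

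The promoters of 4 genes whose ratios stood out in the lines, and of SREBF2, chosen after their values were seen, are shown because SREBP factors act on such sites together with partners. RefSeq windows of 300 bases (250 before and 50 after the start, GRCh38.p14) were at hand for 33 of the 36 genes. Capitals mark the letters of the motifs searched, on either strand: TCACNCCAC, a sterol element, CCAAT, which NF-Y binds, GGGCGG, which Sp1 binds, and ACGTG, the core that HIF factors bind. Where a gene has several windows the one listed first is shown, and adjacent or overlapping matches run together.
SREBF2, chr22:41832855-41833154, plus strand: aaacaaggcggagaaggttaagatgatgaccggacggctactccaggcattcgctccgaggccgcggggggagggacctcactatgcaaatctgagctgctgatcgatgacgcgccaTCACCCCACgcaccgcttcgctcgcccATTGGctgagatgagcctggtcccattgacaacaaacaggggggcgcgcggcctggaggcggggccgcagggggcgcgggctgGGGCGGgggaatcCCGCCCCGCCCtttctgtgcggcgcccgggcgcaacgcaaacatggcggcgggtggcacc
HMGCS1, chr5:43313363-43313662, minus strand: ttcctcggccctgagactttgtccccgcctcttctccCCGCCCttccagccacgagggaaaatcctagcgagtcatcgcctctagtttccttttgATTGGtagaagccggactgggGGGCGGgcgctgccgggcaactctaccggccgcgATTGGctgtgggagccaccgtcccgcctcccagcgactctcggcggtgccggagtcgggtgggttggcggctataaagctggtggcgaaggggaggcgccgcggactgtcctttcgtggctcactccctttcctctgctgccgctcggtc
MSMO1, chr4:165327419-165327718, plus strand: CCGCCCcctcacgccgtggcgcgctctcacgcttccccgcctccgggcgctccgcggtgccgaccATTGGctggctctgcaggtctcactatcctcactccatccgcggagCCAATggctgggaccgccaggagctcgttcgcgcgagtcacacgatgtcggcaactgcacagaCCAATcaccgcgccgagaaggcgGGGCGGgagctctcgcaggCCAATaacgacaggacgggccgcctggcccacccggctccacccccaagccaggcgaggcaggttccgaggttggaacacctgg
INSIG1, chr7:155297628-155297927, plus strand: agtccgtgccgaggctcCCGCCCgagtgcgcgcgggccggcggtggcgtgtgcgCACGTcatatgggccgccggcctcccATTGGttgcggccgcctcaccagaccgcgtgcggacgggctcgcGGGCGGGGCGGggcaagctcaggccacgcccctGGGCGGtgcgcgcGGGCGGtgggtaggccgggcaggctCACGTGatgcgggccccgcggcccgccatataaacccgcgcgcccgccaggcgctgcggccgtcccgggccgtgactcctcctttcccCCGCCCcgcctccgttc
INSIG2, chr2:118088221-118088520, plus strand: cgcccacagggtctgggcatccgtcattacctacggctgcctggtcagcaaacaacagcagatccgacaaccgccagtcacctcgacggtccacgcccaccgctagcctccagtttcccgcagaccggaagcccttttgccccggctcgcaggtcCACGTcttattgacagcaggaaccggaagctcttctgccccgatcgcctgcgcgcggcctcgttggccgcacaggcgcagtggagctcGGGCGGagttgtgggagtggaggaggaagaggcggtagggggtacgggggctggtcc

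Of these windows, the SREBF2 window alone held TCACNCCAC, as TCACCCCAC from base 118 of the window, with CCAAT on the other strand from base 145. SREBF2 was also the only one of the 33 genes with that motif in any window, which is 3.03%, against 1.39% of 27305 genes in the table. The HMGCS1 window held CCAAT in 2 places and that of MSMO1 in 4. The INSIG2 window held no CCAAT and 1 ACGTG match, from base 156. That of INSIG1 held 1 CCAAT and 3 ACGTG matches, from bases 55, 196 and 197. The matches from bases 196 and 197 are the same CACGTG read on either strand. CCAAT was found for 24 of the 33 genes (72.7%, against 39.7% of all genes): 13 of 15 sterol enzymes, 4 of 7 regulators and 7 of 11 fatty acid genes. GGGCGG was found for 31 of 33 (93.9%, against 48.3%), and ACGTG for 12 of 33 (36.4%, against 24.9%). By window, CCAAT was in 59.6% of 47 member windows against 34.6% of all 35116. GGGCGG was in 85.1% against 45.0%, and ACGTG in 29.8% against 21.4%. The 27305 genes were not limited to those expressed here, while all members passed the filter on low counts, and no test was made. The motif counts are matches of letters in a fixed window, and a sterol element in another spelling or position is not counted.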

How the data were processed

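RNA was sequenced in 4 libraries, 2 per line and 2 per treatment. The authors deposited raw counts per gene, with no normalization. The submitters' processing notes name HISAT2 and featureCounts; the sources used here give neither versions nor how strand and multiply mapped reads were handled. Those notes name the build hg18, but start and end of 57475 of 58336 genes, 35 of the 36 members among them, equal GENCODE release 29 on GRCh38. Coordinates are those of the deposited table.

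Tests ran in edgeR 4.0.16 (R 4.3.3) after filterByExpr and TMM scaling, by glmQLFit and glmQLFTest with terms for line and treatment, Benjamini-Hochberg adjustment over 18278 genes and a threshold of 0.05. Library names number the lines, so libraries of a line are paired (Pearson r 0.997 of log2 CPM plus 1 across genes within each line, 0.777 to 0.781 between lines), and the line was the block. The model leaves 1 residual degree of freedom, and its spread is borrowed across genes (prior degrees of freedom 396.9). DESeq2 1.42.0, limma-voom 3.58.1, other scalings, no filter, no block and leaving out libraries were alternatives. Ratios within a line use TMM-scaled CPM with 0.5 counts added and exact conditional binomial intervals of 95%, which cover counting error only. TPM use the table's gene lengths. A floor of 3 counts is 0.104 to 0.12 CPM. The fit was tested on simulated data, where it missed most of the smallest changes and also called some unchanged genes.

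Members and lists were chosen with earlier results of these data known. Named genes were the 5 largest and 5 smallest line differences, members past 1.2-fold in a line and the highest and lowest per length, and others by role. From the other sterol, fatty acid and oxidation lists the 2 largest line differences in each direction were named. The low oxygen genes named beside INSIG2, and ABCA1, LBR and SCD5, were chosen after their values were seen.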

Additional observations from a re-analysis of the deposited data

Results flagged for a closer look

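For 7 genes with a mean of at least 100 counts in each line, the counting interval of the estradiol ratio excluded 0 on opposite sides in the lines, lower in AGS and higher in HGC-27. The difference of the log2 ratios, HGC-27 minus AGS, was 1.08 for INSIG2, 0.80 for ACSS2, 0.51 for INSIG1, 0.38 for HMGCS1, 0.38 for STARD4, 0.36 for MSMO1 and 0.33 for SCD. With 1 library per arm these differences were not tested. How many of all genes had intervals on opposite sides was not counted, so the 7 genes have no background beside them. The members' median count was above that of all genes in each line, and such intervals narrow with counts. No group had the 4 libraries that a check for a library apart from the others needs.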

How the results depend on the processing

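The number of genes called with estradiol was 28 and fell to 13 with library totals, to 1 in DESeq2, and to 0 in limma-voom and without the replicate block, while 0 members were called in every setting. Leaving out a library leaves no residual degree of freedom in the paired model, so the value is then the ratio of the other line, with no test. The number of members called between the lines was 32 to 34 over all settings, and 33 to 34 leaving out each library; for all genes, leaving out each library gave 13189 to 14408 calls against 14106. Between the lines 3 values changed sign: CYP51A1 at -0.048 without the HGC-27 control (0.38 without the HGC-27 estradiol library), and ACSS2 at 0.032 without the AGS estradiol library and 0.062 without the HGC-27 estradiol library, while ACSS2 was called without the AGS control (-0.34) and without the HGC-27 control (-0.36). MVK was not called in 6 settings and EBP in 3. With estradiol, TM7SF2 changed sign in limma-voom (-0.0053) and without the block (-0.0083), and INSIG1 in DESeq2 (-0.0023), none of them called; the cause was not tested. Members past the fold in AGS, 4 at 1.2-fold, were 10 at 1.1-fold and 0 at 1.5-fold; in HGC-27, 3 at 1.2-fold, they were 7 and 1, and 1 at a mean count of at least 500. Other scalings moved the group medians of the ratios by less than the members' median counting error. One library per arm limits every ratio within a line. Depth limits ELOVL5 and FADS1 in AGS. The setting without CYP51A1 was chosen after seeing the data and left 34 members called.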

Other observations

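Fatty acid oxidation, the opposite route, held genes that differed between the lines in both directions. Of 12 genes of oxidation, 7 were called higher in AGS and 5 higher in HGC-27, against 35.7% and 41.5% of all genes tested, with a median log2 difference of 0.21, AGS minus HGC-27. ACADS, an acyl-CoA dehydrogenase, was higher in AGS by 1.16 ± 0.18, and the coactivator PPARGC1A by 4.58 ± 0.47 at a mean of 2.12 CPM. PPARA, a nuclear receptor that induces oxidation, was higher in HGC-27 (-1.19 ± 0.13), as was the carnitine palmitoyltransferase CPT2 (-0.62 ± 0.11). With estradiol in AGS, 3 of the 12 lay below 1/1.2-fold (25%) and 0 above, against 4.64% and 3.47% of all genes. The counting interval there lay below 0 for 6 (50%) and above 0 for 1, against 15.5% and 14.2%, with a median ratio of -0.10. In HGC-27, of 11 with enough counts, it lay above 0 for 2 and below for 0, against 10.8% and 14.6%, with a median of 0.03. The gene above 0 in AGS was CPT2, at 0.20 (0.01 to 0.40), and at 0.21 in HGC-27 (0.05 to 0.37). PPARA had a ratio of -0.31 in AGS and 0.37 in HGC-27. None of the 12 passed the test over both lines in edgeR. Of them 0 had an unadjusted p under 0.05, against 593 of all 18278 genes.

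The acyl-CoA synthetase ACSL5 had 5 and 19 counts in HGC-27 against 400 and 486 in AGS, a ratio within HGC-27 of 2.04 with a counting interval of 0.67 to 3.91, at counts too low for the fold rule.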
